A study of Mus musculus with 6 samples.

Results

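The miR-221 and miR-222 microRNAs (miRNAs) were followed in a mouse model of choroidal neovascularization (CNV), the growth of new vessels from the choroid that laser burns provoke. The members were all rows whose name starts with mmu-miR-221- or mmu-miR-222-, which gave 4 of the 2334 small RNAs listed: mmu-miR-221-3p, mmu-miR-221-5p, mmu-miR-222-3p and mmu-miR-222-5p, written below without their species prefix. Small RNAs were sequenced from the RPE-choroid-sclera complex, where RPE is the retinal pigment epithelium, of male mice aged 7 to 8 weeks. In CNV eyes 25 spots were burned with a laser (532 nm, 100 mW, 0.1 s, 50 µm), and the eyes were removed after 7 days. Control eyes came from age-matched mice that received no laser. Each group had 3 libraries and each library was made from 4 pooled eyes. The labels give no strain and do not say whether the pools came from separate mice, so each p-value reflects the scatter among pools, which may include technical scatter.

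The genes of miR-221 and miR-222 lie side by side on the X chromosome and are thought to be copied into a single primary transcript, from which a hairpin is cut for each miRNA. Each hairpin gives a 3p arm, the abundant guide strand loaded into Argonaute, and a 5p arm, which is mostly discarded. In cultured vascular smooth muscle cells of the rat both 3p arms favour growth by silencing the cell cycle inhibitor p27Kip1, whereas in human endothelial cells they lower the stem cell factor receptor c-Kit and restrain tube formation. Their role therefore differs between the cell types of a vessel wall, which are mixed in this tissue.

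The mature sequences show why both 3p arms are read together. They carry the same seed, bases 2 to 8 counted from the 5′ end, which guides a miRNA to its targets and is in capitals here. The sequences are from RefSeq (GRCm38.p6), where 3 of the 4 arms have an entry. They are given 5′ to 3′.
miR-221-3p: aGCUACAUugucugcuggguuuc
miR-222-3p: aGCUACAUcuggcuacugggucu
miR-221-5p: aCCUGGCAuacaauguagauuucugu
miR-1928: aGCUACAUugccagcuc

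The 3p arms are identical over their first 8 bases and at 11 of 23 positions in all, when compared without gaps. The first difference is U9C, from miR-221-3p to miR-222-3p, counted from the 5′ end. Of the 1738 mature miRNAs listed there, 3 carry this seed, the third being miR-1928 from chromosome 1. It had 1, 2 and 0 counts in the CNV libraries and 0, 2 and 0 counts in the control libraries. Among these 3 entries nearly all counts therefore came from miR-221-3p and miR-222-3p. Counted miRNAs without an entry were not searched for the seed. The seed of miR-221-5p occurs in no other entry. No member had counts equal to those of another miRNA, and how reads matching several miRNAs were counted is not stated in the sources used.

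The hairpins are shown with the mature arms of the table in capitals, to place the arms on their stems.
Mir221: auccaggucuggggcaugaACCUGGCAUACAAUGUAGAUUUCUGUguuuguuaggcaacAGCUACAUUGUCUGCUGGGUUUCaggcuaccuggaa
Mir222: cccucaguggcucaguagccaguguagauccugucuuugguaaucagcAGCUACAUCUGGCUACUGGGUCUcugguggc

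In GRCm38 the Mir221 hairpin spans chrX:19146294-19146388 and the Mir222 hairpin chrX:19146893-19146971, both on the minus strand, with 504 bases between them. Neither overlaps another gene of GENCODE M21, so both are intergenic in that annotation. The nearest other gene, the noncoding transcript Gm14636 on the same strand, is 10009 bases away from Mir222.

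The CNV libraries held 5321436 to 5820315 counts and the control libraries 5057142 to 12839386, with control replicate 2 the deepest. Among the abundant miRNAs were miR-126a-3p of endothelium and miR-143-3p of smooth muscle, along with miR-182-5p of photoreceptors and miR-1a-3p of striated muscle, at places 8, 3, 11 and 2 by mean level. The tissue therefore held RNA of the neural retina and of muscle besides that of vessels. Levels are given in CPM, the count divided by the library total and multiplied by 1000000, with the total scaled by trimmed mean of M-values (TMM). Arms are compared with each other only as counts, since sequence can favour the capture of some small RNAs over others. In whole tissue, more cells of a type and more RNA per cell cannot be told apart.

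All 4 arms had higher mean levels in CNV tissue than in control tissue, and none passed the test over all small RNAs. The abundant arm miR-221-3p was at 770.5, 604 and 527 CPM in CNV replicates 1 to 3, against 489, 427 and 444 CPM in control replicates 1 to 3. Every CNV pool lay above every control pool, with CNV replicate 1 the highest of the 6 and CNV replicate 3 the nearest to the controls. These values rest on 3035 to 3960 counts per CNV library and 2173 to 5944 per control library. The means were 634 ± 124 CPM in CNV and 453 ± 32.1 CPM in control (SD, n = 3 each), a 1.40-fold difference with a 95% interval of 1.06 to 1.85. The log2 fold change was 0.48 (SE 0.18), with an adjusted p of 0.227 (edgeR quasi-likelihood test, Benjamini-Hochberg adjusted over all small RNAs tested).

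The second guide arm, miR-222-3p, was at 282, 213 and 244 CPM in CNV replicates 1 to 3, against 141, 178 and 228 CPM in control replicates 1 to 3. Here the groups overlapped, since CNV replicate 2 lay below control replicate 3. The control pools were more spread for this arm than for miR-221-3p. The means were 246 ± 34.3 CPM in CNV and 183 ± 43.8 CPM in control (SD, n = 3 each), a 1.35-fold difference whose interval, 0.971 to 1.88, includes no difference. The log2 fold change was 0.43 (SE 0.21, adjusted p 0.327 in edgeR's test). In every library the shared seed was carried by more reads of miR-221-3p than of miR-222-3p, by 2.16 to 2.83 times in CNV and 1.94 to 3.47 times in control.

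The passenger arm miR-221-5p showed a wider separation than its partner. It was at 75.3, 68.3 and 42.6 CPM in CNV replicates 1 to 3, against 36.6, 32.6 and 36.1 CPM in control replicates 1 to 3. CNV replicates 1 and 2 stood apart from all other pools, while CNV replicate 3 lay just above the highest control. The means were 62.1 ± 17.2 CPM in CNV and 35.1 ± 2.16 CPM in control (SD, n = 3 each), 1.77-fold with an interval of 1.22 to 2.55. The log2 fold change was 0.82 (SE 0.23, adjusted p 0.158 in edgeR's test). Without CNV replicate 3 it was 0.95 and passed, at an adjusted p of 0.0440, in a fit that called 24 small RNAs in all. With any other single library left out it was 0.65 to 0.85 and did not pass, at an adjusted p of 0.171 to 0.572 in edgeR's test.

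The rarest arm, miR-222-5p, had the greatest ratio between groups and the fewest reads. It was counted 36, 30 and 24 times in CNV replicates 1 to 3, against 16, 42 and 10 times in control replicates 1 to 3, where the 42 came from the deepest library. As levels these were 7.00, 5.97 and 4.13 CPM in CNV, against 2.76, 3.02 and 2.04 CPM in control, and the groups did not overlap. The exact 95% Poisson interval of the lowest count, 10 in control replicate 3, was 4.80 to 18.4 counts, and that of the highest CNV count, 36 in replicate 1, was 25.2 to 49.8. These intervals cover counting error only. The means were 5.70 ± 1.46 CPM in CNV and 2.61 ± 0.506 CPM in control (SD, n = 3 each), 2.12-fold with an interval of 1.32 to 3.40 (log2 1.08, SE 0.30, adjusted p 0.142 in edgeR's test).

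**Figure D1:**
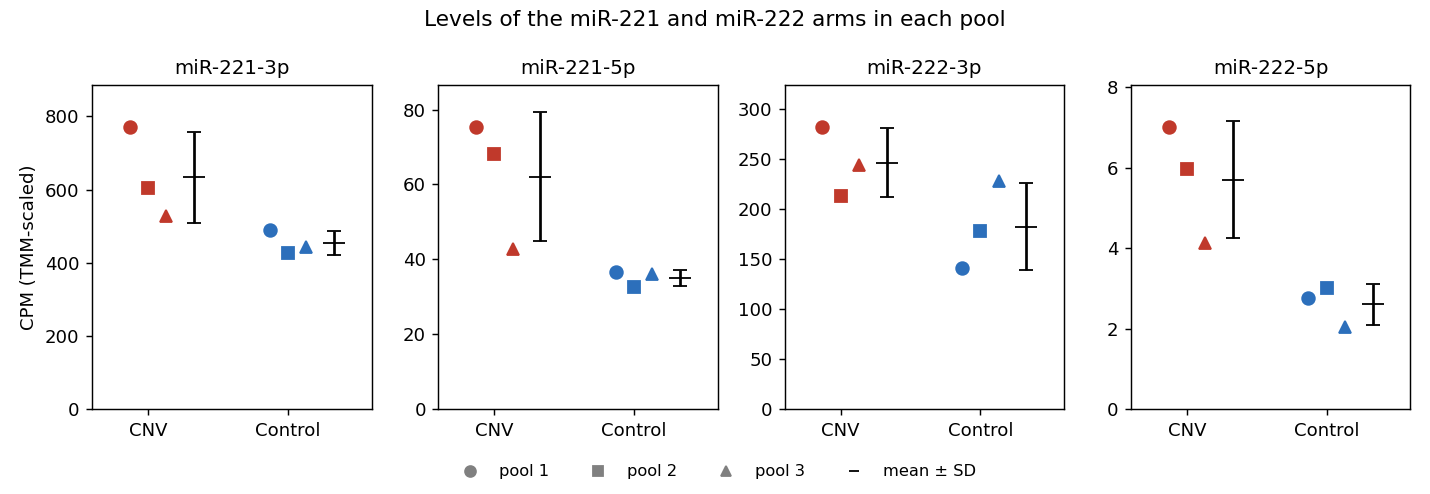
Level of each miR-221 and miR-222 arm in CPM (TMM-scaled, linear axes from 0) in the 3 CNV pools (red, left) and 3 control pools (blue, right), with the mean ± SD beside them. Every CNV pool lies above every control pool for miR-221-3p, miR-221-5p and miR-222-5p, and overlap with them for miR-222-3p; CNV pool 1 is the highest in each panel.

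All 4 arms passed the filter on low counts, and each reached its level in all 3 libraries of both groups, so no arm was kept through CNV alone. In the fit over all 997 small RNAs tested, 3 were called at an adjusted p under 0.05 (0.301%), all of them higher and none of them these arms. DESeq2 called 3.81% and limma-voom 0.301% of the same small RNAs, again without the 4 arms. At an unadjusted p under 0.05 the higher small RNAs were 10.8% of those tested, and 3 of the 4 arms were among them, at 0.0247 for miR-221-3p, 0.00680 for miR-221-5p and 0.00585 for miR-222-5p in edgeR's test. A value of 0.0693 was found for miR-222-3p. Every CNV pool lay above every control pool for 11.4% of the tested small RNAs and for 3 of the 4 arms. A log2 fold change above 0 was found for 53.6% of the small RNAs and for all 4 arms. The arms are not independent of each other, as each pair shares a hairpin and both hairpins probably share a transcript. By fold change the arms took places 13 (miR-222-5p), 24 (miR-221-5p), 53 (miR-221-3p) and 64 (miR-222-3p) from the top among the 541 miRNAs tested.

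**Figure D2:**
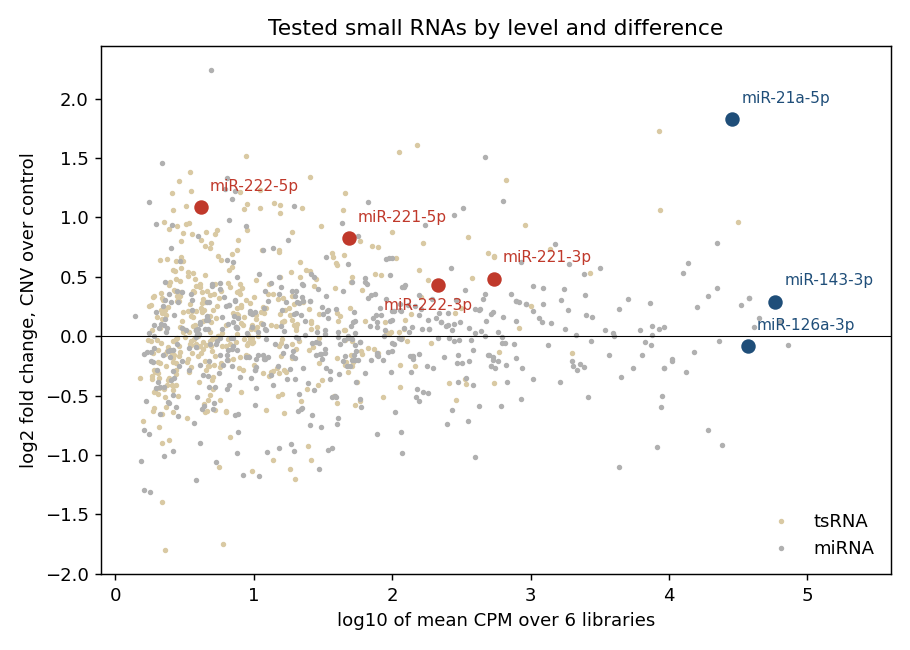
Log2 fold change, CNV over control, against log10 of the mean CPM for the 997 small RNAs tested, with miRNAs in grey and fragments of transfer RNAs (tsRNAs) in tan. The 4 arms (red) all lie above 0, at 1.08 for the rare miR-222-5p and 0.43 to 0.82 for the others, within the cloud of the other small RNAs, whereas miR-21a-5p lies at 1.82.

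The separation of miR-221-3p depended on the scaling. When libraries were scaled by total counts alone its groups overlapped and its log2 fold change was 0.32, while the median of all small RNAs stood at -0.11 rather than 0.048 under TMM, a shift of -0.16. Both 5p arms stayed apart under that scaling, at 0.66 for miR-221-5p and 0.92 for miR-222-5p, and miR-222-3p was at 0.30. Under it 38.2% of all small RNAs tested had a positive log2 fold change. The share of all small RNAs whose groups stay apart was counted only under TMM, so these separations have no such share beside them. With CPM taken of the miRNA counts alone, miR-221-3p was at 655 ± 84.4 CPM in CNV and 506 ± 66.1 CPM in control (SD, n = 3 each), again with overlap. On that scale miR-222-3p overlapped too, at 256 ± 26.2 CPM in CNV and 201 ± 32.9 CPM in control (SD, n = 3 each). Both 5p arms stayed apart on it. The tsRNAs took 6.47% to 10.6% of the counts in CNV libraries and 4.78% to 6.48% in control libraries. The 4 arms together made up 0.110%, 0.0942% and 0.0899% of the miRNA counts in CNV replicates 1 to 3, against 0.0794%, 0.0730% and 0.0725% in control replicates 1 to 3. For the sum the groups did not overlap on this scale, although they did for each guide arm alone.

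Ratios of counts within a library need no scaling, and were used to ask whether the arms moved together. A group of 6 ratios was tested with two-sided exact permutation tests, in which 3 pools against 3 cannot give a p under 0.1, and none was below 0.4 after Benjamini-Hochberg adjustment over the 6. The log2 ratio of miR-221-3p to miR-222-3p was 1.45, 1.50 and 1.11 in CNV replicates 1 to 3, against 1.80, 1.26 and 0.96 in control replicates 1 to 3. The group means were 1.35 and 1.34 (exact permutation p = 1), so a difference between both hairpins was not detectable. The control pools spanned a wider range than the CNV pools. Leaving out control replicate 1 gave a difference of 0.25 and leaving out control replicate 3 one of -0.17, so its direction rests on single pools.

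The share of passenger reads from the miR-221 hairpin was highest in CNV replicates 1 and 2. The share of miR-221-5p among the reads of both miR-221 arms was 8.90%, 10.2% and 7.48% in CNV replicates 1 to 3, against 6.96%, 7.10% and 7.53% in control replicates 1 to 3. The share in CNV replicate 3 fell among the controls, so the groups overlapped. The log2 ratio of miR-221-3p to miR-221-5p was 3.37 ± 0.242 in CNV and 3.69 ± 0.0651 in control, a difference of -0.31 (exact permutation p = 0.2, adjusted 0.4).

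The miR-222 hairpin gave far fewer passenger reads. The share of miR-222-5p among the reads of both miR-222 arms was 2.42%, 2.72% and 1.66% in CNV replicates 1 to 3, against 1.92%, 1.66% and 0.887% in control replicates 1 to 3. The groups overlapped. Exact binomial 95% intervals, which cover counting error only, were 0.426% to 1.62% for control replicate 3 and 1.20% to 2.24% for control replicate 2. The log2 ratio of miR-222-3p to miR-222-5p, which was added to the planned ratios, differed by -0.64 between CNV and control (exact permutation p = 0.2).

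**Figure D3:**
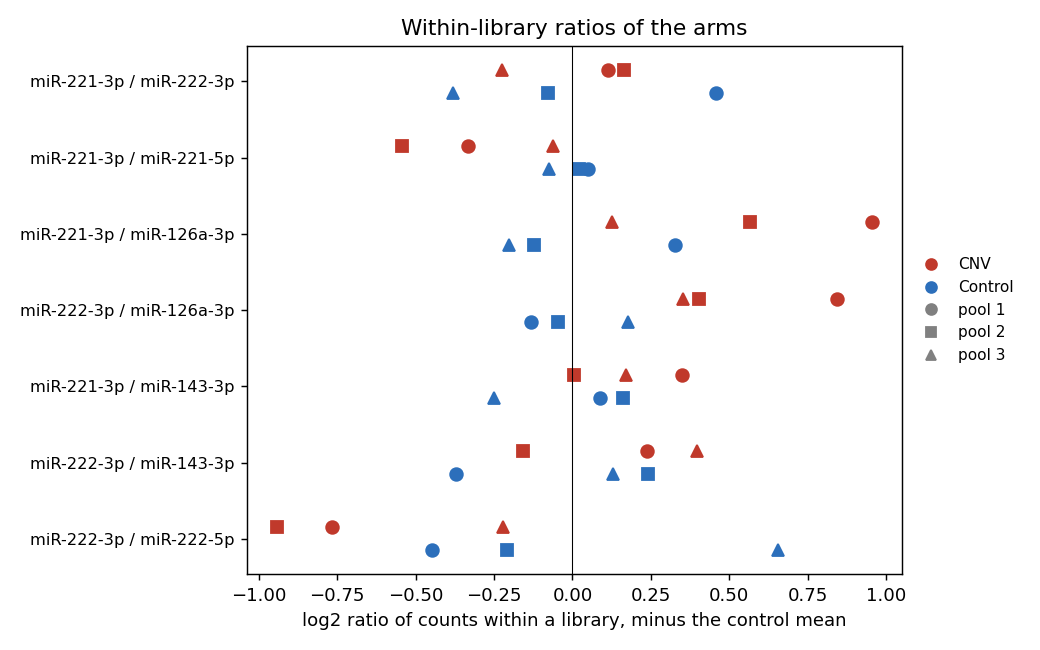
Log2 ratios of counts within each library, each row set to 0 at its control mean, for the CNV pools (red, upper) and the control pools (blue, lower); symbols mark the pool number. For miR-222-3p over miR-126a-3p the 3 CNV pools lie above all control pools, and in the other 6 rows the groups overlap.

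Relative to the endothelial miR-126a-3p, which silences brakes on growth factor signalling in endothelium, both guide arms had higher mean ratios in CNV. The level of miR-126a-3p itself was 36176 ± 3933 CPM in CNV and 38356 ± 5122 CPM in control (SD, n = 3 each; log2 -0.084). The log2 ratio of miR-222-3p to miR-126a-3p was -6.89, -7.33 and -7.38 in CNV replicates 1 to 3, against -7.87, -7.78 and -7.56 in control replicates 1 to 3. The groups did not overlap, and the difference was 0.53 (exact permutation p = 0.1, the smallest this design can give, adjusted 0.4). The log2 ratio of miR-221-3p to miR-126a-3p was -5.44, -5.83 and -6.27 in CNV replicates 1 to 3, against -6.07, -6.52 and -6.60 in control replicates 1 to 3. Here CNV replicate 3 lay below control replicate 1, and the difference was 0.55 (exact permutation p = 0.2, adjusted 0.4).

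Relative to miR-143-3p, which keeps smooth muscle cells in their contractile state, the guide arms differed less. The level of miR-143-3p was 64481 ± 8997 CPM in CNV and 52751 ± 8398 CPM in control (SD, n = 3 each; log2 0.29). The log2 ratios to miR-143-3p differed by 0.18 for miR-221-3p and 0.16 for miR-222-3p (exact permutation p = 0.4 and 0.6, adjusted 0.6 and 0.72). The groups overlapped for both. Without control replicate 1 the value for miR-222-3p was -0.026.

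Other miRNAs of vessel growth did not show a common direction. A list of 21 was used, 14 of endothelium and vessel growth and 7 of smooth muscle growth, all of which were tested. One passed, miR-21a-5p, which is induced by injury and supports smooth muscle growth, and none was called lower, beside 0.301% called over all small RNAs tested. The level of miR-21a-5p was 44686 ± 6145 CPM in CNV and 12615 ± 3812 CPM in control (SD, n = 3 each). Its log2 fold change was 1.82, and it was called at an edgeR adjusted p of 0.0183. This call was lost at a minimum mean of 20 CPM (adjusted p 0.0545) and without CNV replicate 1 (0.0866), CNV replicate 2 (0.129), control replicate 2 (0.236) or control replicate 3 (0.171) in edgeR's test, with a log2 fold change of at least 1.57 in each. The median log2 fold change of the 21 was 0.032, with 12 higher and 9 lower, beside a median of 0.048 over all small RNAs tested. Scaled by total counts alone, the median of the 21 was -0.12, with 6 higher and 15 lower. Under that scaling the median over all small RNAs tested was -0.11, and 38.2% of them were higher.

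The endothelial part had a median of -0.042 and ranged from -0.59 for the hypoxia-induced miR-210-3p to 0.31 for miR-23b-3p. Both arms of miR-126a lay below 0, with miR-126a-5p at 1941 ± 275 CPM in CNV and 2365 ± 307 CPM in control (SD, n = 3 each; log2 -0.28). The smooth muscle part had a median of 0.29, with 6 higher and 1 lower, and ranged from -0.35 for miR-143-5p to 1.82 for miR-21a-5p. Within its miR-143 and miR-145 cluster the arms differed in direction. The guide miR-145a-5p was at 2781 ± 824 CPM in CNV and 2185 ± 347 CPM in control (SD, n = 3 each; log2 0.35) and miR-145a-3p had a log2 fold change of 0.032. The passenger miR-143-5p was at 299 ± 67.2 CPM in CNV and 381 ± 39.3 CPM in control (SD, n = 3 each). Each of the 4 arms, at 0.43 to 1.08, had a larger fold change than all 14 of the endothelial part, a difference that was not tested. Of the smooth muscle part, miR-21a-5p lay above all 4 arms, and miR-146a-5p, at 0.57, above both guide arms.

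**Figure D4:**
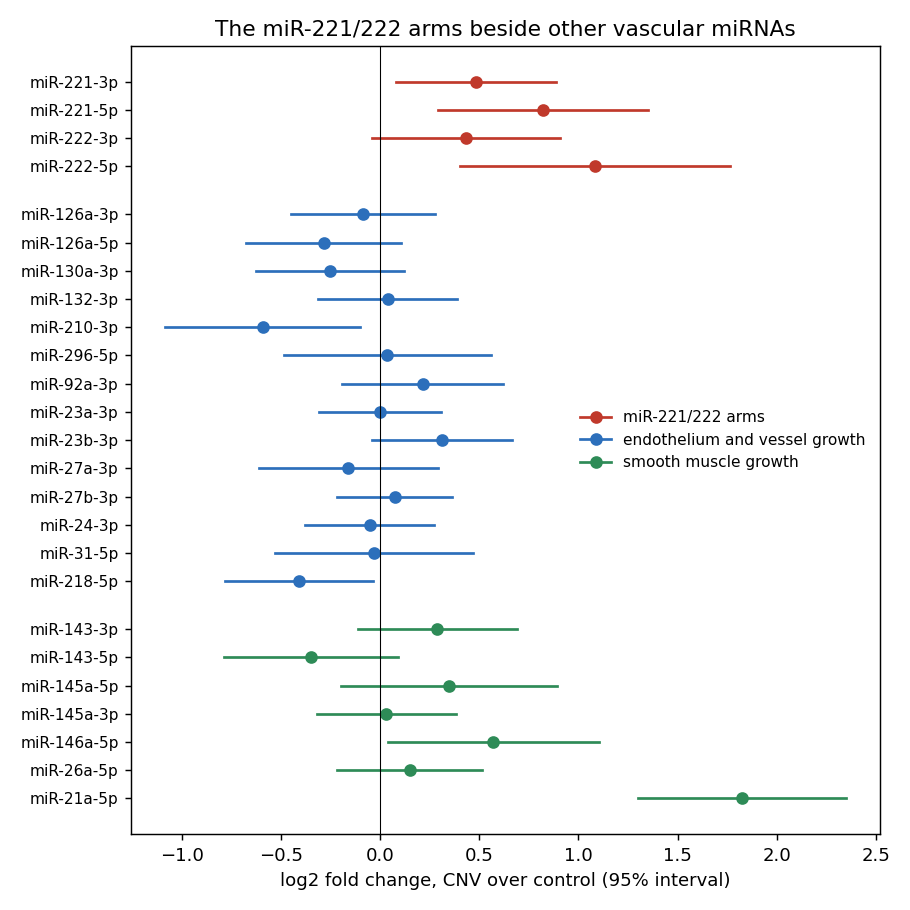
Log2 fold change, CNV over control, with its 95% interval for the miR-221 and miR-222 arms (red), 14 miRNAs of endothelium and vessel growth (blue) and 7 of smooth muscle growth (green). The arms lie at 0.43 to 1.08, the endothelial miRNAs at -0.59 to 0.31, and miR-21a-5p at 1.82.

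Markers of other cell types also differed between the same pools. All markers of each list were counted in every library, with none at 0, and none of them passed edgeR's test. The 5 leukocyte miRNAs had a summed level of 700.0 to 1015 CPM in CNV pools and 545 to 662 CPM in control pools. For 4 of the 5 every CNV pool lay above every control pool, beside 11.4% of all small RNAs tested. The fifth, the lymphocyte miRNA miR-150-5p, was separated in the other direction, at 152 ± 16.9 CPM in CNV and 213 ± 26.4 CPM in control (SD, n = 3 each; log2 -0.48). How many of all small RNAs were separated in this lower direction was not counted, here or for the lower markers below. Scaled by total counts alone the leukocyte sums overlapped, at 720.0 to 902 CPM in CNV pools and 528 to 728 CPM in control pools. Among the higher ones the blood cell miRNA miR-142a-3p was at 72.5 ± 2.98 CPM in CNV and 40.4 ± 7.02 CPM in control, and the myeloid miR-223-3p at 123 ± 10.5 CPM in CNV and 77.9 ± 2.04 CPM in control (SD, n = 3 each). The 3 fibroblast miRNAs were each separated in the same direction as these, beside the same 11.4% of all small RNAs tested. They had a sum of 54131 to 60776 CPM in CNV pools and 43417 to 46909 CPM in control pools.

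Retinal and RPE markers had lower mean levels in CNV. The 3 photoreceptor miRNAs had a sum of 24736 to 49473 CPM in CNV pools and 49348 to 75779 CPM in control pools, with CNV replicate 3 just above control replicate 2. Scaled by total counts alone they did not overlap, at 23362 to 50884 CPM in CNV pools and 53492 to 84094 CPM in control pools. Among them miR-182-5p was at 16657 ± 7267 CPM in CNV and 31500 ± 7442 CPM in control and miR-183-5p at 13930 ± 3488 CPM in CNV and 24080 ± 5670 CPM in control (SD, n = 3 each). The 3 neuron miRNAs had a sum of 7818 to 12483 CPM in CNV pools and 13852 to 21019 CPM in control pools, with miR-124-3p at 2769 ± 1319 CPM in CNV and 5943 ± 2123 CPM in control (SD, n = 3 each). The 4 RPE miRNAs summed to 4573 to 6546 CPM in CNV pools and 6841 to 7042 CPM in control pools, with miR-204-5p at 3960 ± 846 CPM in CNV and 5023 ± 88.5 CPM in control (SD, n = 3 each).

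Sums of the remaining lists overlapped between groups. The 2 endothelial miRNAs summed to 35449 to 42881 CPM in CNV pools and 35246 to 45069 CPM in control pools, and the 4 smooth muscle miRNAs to 56901 to 74040 CPM in CNV pools and 47236 to 63776 CPM in control pools. The 3 red cell miRNAs summed to 955 to 4165 CPM in CNV pools and 1310.5 to 2108 CPM in control pools. The 3 skeletal muscle miRNAs summed to 57437 to 90589 CPM in CNV pools and 34304 to 91114 CPM in control pools. The part of any of these cell types in the levels of the miR-221 and miR-222 arms was not tested.

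**Figure D5:**
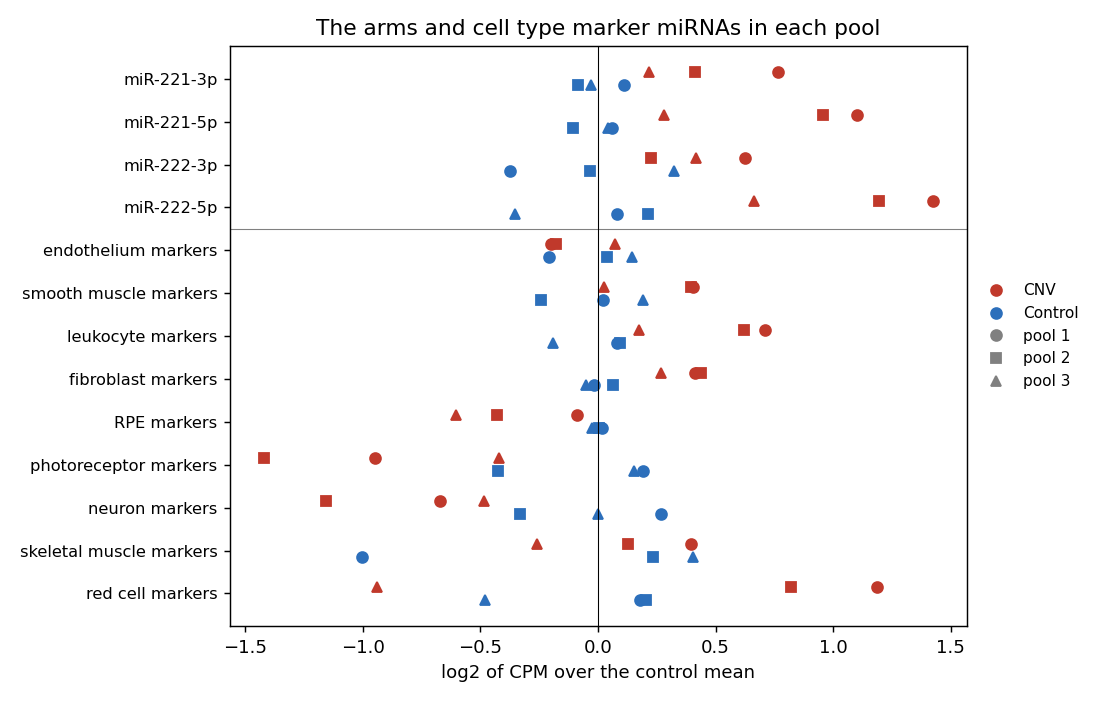
Level of each arm and summed level of each marker list in every pool, as log2 of CPM over the control mean, with CNV pools in red (upper) and control pools in blue (lower) and symbols for the pool number. Leukocyte and fibroblast sums lie higher in all CNV pools, as do 3 of the 4 arms, while endothelial sums overlap and neuron and RPE sums lie lower in all CNV pools.

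Among the arms, levels followed each other across the 6 libraries except for miR-222-3p. Pearson's r of log2 CPM was 0.95 between miR-221-3p and miR-221-5p, 0.91 between miR-221-3p and miR-222-5p and 0.92 between both 5p arms. With miR-222-3p it was 0.61 for miR-221-3p, 0.61 for miR-221-5p and 0.54 for miR-222-5p. The points share libraries, scaling and the division into groups, so these values are a description of 6 libraries. By the same measure, 238 of the other small RNAs tested stood closer to miR-221-3p than its cluster partner miR-222-3p did.

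The patterns most like miR-221-3p, among 557 other small RNAs with a mean of at least 10 CPM, were those of miR-26a-2-3p (r = 0.98), miR-154-3p (0.97), miR-106b-3p (0.97), miR-501-3p (0.96) and miR-494-3p (0.95). All had positive log2 fold changes, from 0.29 for miR-26a-2-3p to 0.95 for miR-494-3p, which was at 56.7 ± 14.8 CPM in CNV and 29.4 ± 1.82 CPM in control (SD, n = 3 each). Closest to miR-222-3p were miR-122-5p (r = 0.95), miR-148a-3p (0.90), miR-27a-5p (0.89), miR-1839-5p (0.88) and the tRNA fragment tRF-Leu-CAA-010 (0.88). No small RNA was in both groups of 5. The hepatocyte miRNA miR-122-5p was at 17.2 ± 9.29 CPM in CNV and 10.4 ± 8.46 CPM in control (SD, n = 3 each), with a spread in both groups wider than the difference between them.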

How the data were processed

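Small RNA libraries (inserts of 14 to 40 nt) were sequenced on a NextSeq 500, per the labels' protocols. The deposited tables give a read count per mature miRNA and tsRNA, 1836 and 498 of them. The submitters' processing notes name Bowtie, with no version; build, mismatches and multiple matches are not given in the sources used. Levels were computed from the counts, since the CPM column scales the classes by different totals. Groups and replicate numbers came from the sample titles.

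Counts of both classes were fitted together in R 4.3.3 with edgeR 4.0.16: filterByExpr (minimum count 10, minimum total 15), TMM factors, a quasi-likelihood test of CNV against control with no covariate, and Benjamini-Hochberg adjustment over 997 small RNAs at 0.05. Intervals are 95%. Arm ratios had 0.5 added to both counts. Likeness used log2 CPM with a prior count of 2. The fit was also run on simulated counts with set differences, and no result given here rests on that run. Alternatives were RLE factors, total counts, DESeq2 1.42.0, limma-voom (limma 3.58.1), other filters, miRNAs alone, a replicate block and leaving out each library. The members and lists were chosen with earlier results of these data known. Named miRNAs were the members, the 5 most like each guide arm, and examples set beforehand from the lists. After their values were seen, miR-210-3p, miR-23b-3p, miR-143-5p, miR-145a-3p, miR-146a-5p, miR-150-5p and miR-1928 were named too.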

Additional observations from a re-analysis of the deposited data

How the results depend on the processing

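All 4 arms kept a positive log2 fold change under every alternative that tested them, at 0.31 to 0.55 for miR-221-3p, 0.65 to 0.95 for miR-221-5p, 0.28 to 0.58 for miR-222-3p and 0.90 to 1.20 for miR-222-5p, which a minimum mean of 20 CPM removed. The only call was miR-221-5p without CNV replicate 3. The number of small RNAs called was 3, against 38 with DESeq2 (27 higher and 11 lower), 88 without a filter (45 higher and 43 lower), 0 at a minimum mean of 20 CPM and 6 with miRNAs alone. It was 0 to 24 with a library left out: 24 without CNV replicate 3, and 0 without CNV replicate 1, CNV replicate 2, control replicate 2 or control replicate 3. Without a filter 2 of the 21 vascular miRNAs were among the 88 called, miR-21a-5p and miR-210-3p, the latter at a log2 fold change of -0.59 in the main fit. None of the 21 was called at a minimum mean of 20 CPM (0), and 0 to 1 with a library left out. The median log2 fold change of the 21 was -0.12 with total counts, beside -0.11 over all small RNAs tested. It was -0.052 without a filter, 0.099 with miRNAs alone and -0.13 to 0.068 with a library left out. With a library left out, the difference in log2 ratio ranged from -0.17 to 0.25 for miR-221-3p over miR-222-3p and from -0.026 to 0.32 for miR-222-3p over miR-143-3p. The causes were not tested. With the replicate number as a block 36 small RNAs were called (19 higher and 17 lower) and none of the 4 arms, at adjusted p of 0.0664 to 0.273. Same-numbered pools deviated together at r = 0.29, 0.030 and 0.17, and differently numbered pools at r = -0.26 to 0.15. Each CNV pool was closest to the control pool of its own number, while control replicate 2 was closer to CNV replicate 3 (0.15). These values do not settle whether the numbers mark pairs, and the main fit did not take them as pairs.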

Other observations

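Other miRNAs of the X chromosome did not share the direction of the 4 arms as a set. Of the 456 tested miRNAs found by name in RefSeq, 45 others have all their loci on X, and 20 of these (44.4%) had a positive log2 fold change, with a median of -0.033. Over all 456 matched miRNAs 50.2% were positive, with a median of 0.0012. The smallest p among the 45 belonged to the myeloid miR-223-3p (log2 0.66) and the next to miR-2137, at 8.75 ± 1.40 CPM in CNV and 4.48 ± 0.957 CPM in control (SD, n = 3 each; log2 0.98), neither past edgeR's test (adjusted p 0.127 and 0.137). This set was chosen after the values were seen and carries no test.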
